A study of Rattus norvegicus with 24 samples.

Results

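Liver gene expression under 1-amino-2-methylanthraquinone, an aminoanthraquinone dye, was set against that of vehicle-treated rats. The arrays were chosen by the compound named in the labels, which gave 4 of the 24 arrays in the series. Each carried liver RNA of 1 male F344 rat, an inbred laboratory strain, labelled with Cy3. The treated rats were 5 weeks old per the labels and received 150 mg/kg/day in corn oil by gavage, at 5 ml per kg, over 28 days. The reference on each array was Cy5-labelled liver RNA pooled from 4 control rats, so that it counts as 1 control sample. No array had its dyes exchanged. The design classes the compound among 4 carcinogens. As a second comparison, the treated rats were set against 5 other compounds with 4 rats each. These were hexachloroethane at 500, 1,2,3-trichloropropane at 50, 3-(4-chlorophenyl)-1,1-dimethylurea (monuron) at 250 and 1,2-dichlorobenzene at 300 mg/kg/day in corn oil, and tetracycline hydrochloride at 1000 mg/kg/day in water. The rats of these 5 compounds were also 5 weeks old per the labels and were gavaged at 5 ml per kg over 28 days. Each of these rats was measured against vehicle too, and whether compounds shared a vehicle pool is not given in the sources used here.

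The aryl hydrocarbon receptor (AhR) is a transcription factor of hepatocytes that flat aromatic molecules activate. With its partner Arnt it binds short DNA elements near the genes of the CYP1A enzymes, which oxidise such molecules. Nrf2 is a transcription factor that electrophiles free from its inhibitor Keap1, and it raises enzymes that conjugate or reduce reactive compounds. Cells lining the bile ducts, and the liver progenitor cells that resemble them, hold keratins and adhesion proteins, some of which are scarce in hepatocytes.

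Measurement on the treated arrays was even. On the 4 arrays, 69.2 to 69.9% of probes in the treated channel and 70.0 to 73.4% in the vehicle channel lay well above background. All 12 listed hepatocyte markers were measured above background in both channels. Probes were kept for lying above background, and all measured markers of macrophages and liver endothelium lay there too. The tissue label is thus not tested by this. Values below are log2 ratios of treated over vehicle, so that 1 is 2-fold higher and -1 is 2-fold lower. Genes counted as called had both a 2-fold change or more and a limma p below 0.05 after Benjamini-Hochberg adjustment. Because the vehicle pool is 1 sample, the spread between control rats is left out of the test against vehicle. A dye effect alike on all arrays stays in that test but cancels in the comparison with the other 5 compounds. The compound lay alone on its slide and its scan day, so slide, day and compound cannot be told apart.

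Against vehicle, 245 of 12000 genes (2.04%) were called, 145 higher (1.21%) and 100 lower (0.833%). With each array centred on its median in place of loess scaling, 120 were higher and 970 lower, and the median over all genes was -0.31 in place of -0.02. On adjusted p alone 57.6% of genes passed, 27% higher and 30.6% lower, so the fold limit sets most of the count. The ratio had 1 sign in all 4 rats for 241 of the 245 genes. Changes reached past 4-fold for 27 genes higher and 13 lower. Against the mean of the other 5 compounds, 149 genes (1.24%) were called, 106 higher (0.883%) and 43 lower (0.358%). That split was 71 higher and 64 lower with median centring. Without rat 3 the lower calls numbered 69. Of the genes called against vehicle, 136 higher and 63 lower also passed an adjusted p of 0.05 in that direction against the other compounds. The other 9 higher and 37 lower did not. For comparison, calls against vehicle numbered 105 under hexachloroethane, 105 under 1,2,3-trichloropropane, 161 under monuron, 183 under 1,2-dichlorobenzene and 33 under tetracycline hydrochloride.

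**Figure D1:**
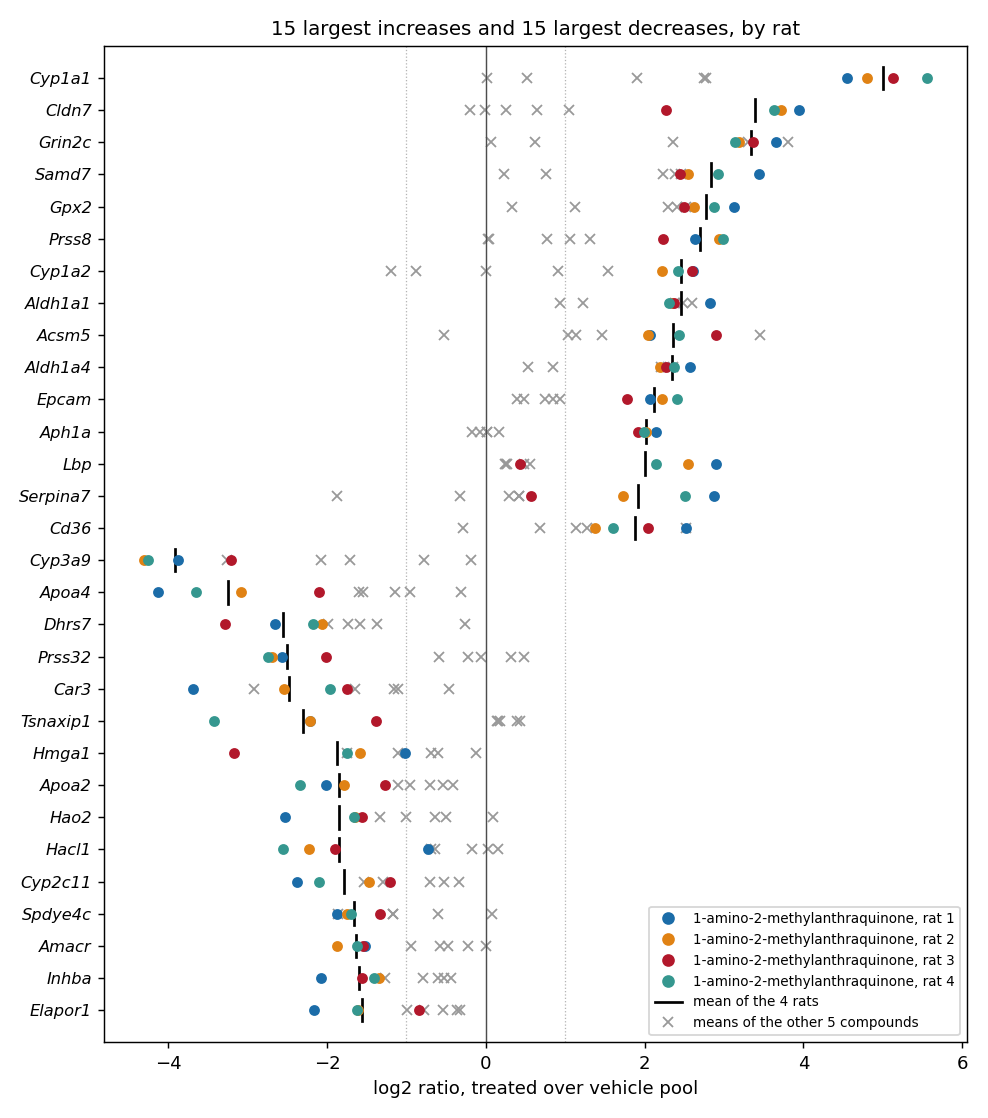
Log2 ratio of treated over vehicle (x axis) for the 15 largest increases and 15 largest decreases that also passed against the other 5 compounds. Dots are the 4 treated rats, black bars their mean, grey crosses the means of the other 5 compounds, and dotted lines mark 2-fold. Cyp1a1 lay between 4.54 and 5.56 in treated rats and between 0.01 and 2.77 under the other compounds, and Tsnaxip1 between -3.42 and -1.38 against 0.14 to 0.43.

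The largest increase of a gene with a symbol was that of Cyp1a1, the AhR-regulated monooxygenase that serves as the usual readout of the receptor. Its signal was 2548, 3072, 4614 and 6506 in treated rats, against 109, 111, 132 and 138 for the vehicle pool on the same arrays. Every treated rat thus stood far above the pool, at log2 ratios of 4.54, 4.80, 5.13 and 5.56. The mean was 5.01 ± 0.44 (SD, n = 4), 32.2-fold (limma adjusted p = 7.5e-11). Its means under the other compounds were 2.75 under hexachloroethane, 2.77 under monuron, 1.91 under 1,2-dichlorobenzene, 0.52 under 1,2,3-trichloropropane and 0.01 under tetracycline hydrochloride. 1-Amino-2-methylanthraquinone exceeded the mean of those 5 by 3.42 ± 0.35 (SE, adjusted p = 1.4e-07).

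Cyp1a2, the second CYP1A enzyme and an abundant one in liver, had a higher mean than under any of the other 5 compounds. Treated rats had log2 ratios of 2.61, 2.22, 2.60 and 2.42, with a mean of 2.46 ± 0.18 (SD, n = 4), 5.51-fold (limma adjusted p = 1.1e-11). All 4 lay close together. The means of the other compounds were 1.54 under monuron, 0.91 under hexachloroethane, 0.00 under tetracycline hydrochloride, -0.88 under 1,2,3-trichloropropane and -1.19 under 1,2-dichlorobenzene. The treated mean exceeded theirs by 2.39 ± 0.15 (SE, adjusted p = 2.0e-10). Of 17 AhR list genes, 12 were measured, all above background in both channels, and 3 rose while 0 fell, where 1.21% and 0.833% of all genes did. With median centring, under which 970 of 12000 genes fell, 3 members rose and 3 fell. The third that rose was Nqo1, a quinone reductase that Nrf2 also controls, with 1.99, 1.57, 1.74 and 1.74 and a mean of 1.76 ± 0.17 (SD). Ugt1a6, a glucuronosyltransferase, had a mean of 0.84 and Aldh3a1, an aldehyde dehydrogenase, 0.61, both past the adjusted p but under 2-fold. The receptor itself, Ahr, had -0.02 ± 0.29 (SD) and Arnt -0.10 ± 0.09. The list's median was 0.28, beside -0.02 over all genes. With median centring it was -0.16, beside -0.31 over all genes.

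The DNA in front of 4 of the 9 called AhR and Nrf2 genes is shown, because both factors bind short known elements. The choice was up to 3 AhR list members and up to 2 further Nrf2 list members with the largest increases that had a sequence, so Akr7a3, Abcc3 and Ephx1 are not shown. The windows are RefSeq sequences of the rat assembly GRCr8, from 250 bases before to 50 after the gene's start, read along the gene. Cyp1a1 had no entry in the table, and Gsta3 had 2, so neither is shown. Capitals mark GCGTG, the core bound by AhR and Arnt, or TGACNNNGC, the core of the antioxidant response element that Nrf2 binds, on either strand. Cyp1a2 is at chr8:66978100-66978399 on the minus strand and Nqo1 at chr19:52220218-52220517 on the minus strand. Gpx2 is at chr6:101229984-101230283 on the minus strand and Aldh1a1 at chr1:227537370-227537669 on the plus strand.
Cyp1a2: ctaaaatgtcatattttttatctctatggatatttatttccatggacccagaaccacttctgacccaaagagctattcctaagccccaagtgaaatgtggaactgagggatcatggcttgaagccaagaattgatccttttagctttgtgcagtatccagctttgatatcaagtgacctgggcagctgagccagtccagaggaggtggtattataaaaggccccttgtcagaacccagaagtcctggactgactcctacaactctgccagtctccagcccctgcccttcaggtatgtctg
Nqo1: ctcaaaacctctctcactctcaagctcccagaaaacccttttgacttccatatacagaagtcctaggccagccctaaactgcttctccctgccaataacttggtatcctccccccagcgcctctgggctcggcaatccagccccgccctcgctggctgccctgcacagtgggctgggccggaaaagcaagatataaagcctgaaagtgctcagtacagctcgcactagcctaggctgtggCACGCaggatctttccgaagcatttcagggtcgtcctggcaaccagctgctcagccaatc
Gpx2: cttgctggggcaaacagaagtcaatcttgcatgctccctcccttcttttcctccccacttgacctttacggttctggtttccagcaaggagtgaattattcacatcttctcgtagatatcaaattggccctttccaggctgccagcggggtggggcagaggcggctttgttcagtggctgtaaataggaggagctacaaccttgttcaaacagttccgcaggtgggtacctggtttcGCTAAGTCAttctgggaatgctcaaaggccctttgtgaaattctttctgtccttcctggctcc
Aldh1a1: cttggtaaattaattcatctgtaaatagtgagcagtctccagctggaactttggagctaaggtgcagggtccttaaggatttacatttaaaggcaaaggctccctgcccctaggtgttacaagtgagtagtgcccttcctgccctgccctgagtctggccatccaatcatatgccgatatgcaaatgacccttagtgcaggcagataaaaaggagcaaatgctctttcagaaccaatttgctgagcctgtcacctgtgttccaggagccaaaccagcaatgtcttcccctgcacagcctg
Nqo1 held 1 match to the AhR core, read on the opposite strand just before the start, and Gpx2 held 1 match to the antioxidant core, also on the opposite strand and just before the start. Neither core overlapped the other, and no match lay in the windows of Cyp1a2 and Aldh1a1. Of 33469 rat windows of this length, 29.7% held the AhR core and 12.1% the antioxidant core, so a match is a description of these letters alone.

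Several enzymes of the Nrf2 list were among the largest increases. Of 37 list genes, 30 were measured, all above background in both channels, and 7 rose while 0 fell, where 1.21% and 0.833% of all genes did. With median centring 5 rose and 4 fell. Without rat 1, 6 of them rose, since Ephx1 then had 1.00, just under 2-fold. Gsta3, a glutathione transferase, had 4.57, 3.64, 5.01 and 3.65, with a mean of 4.22 ± 0.69 (SD, n = 4), 18.6-fold (limma adjusted p = 1.1e-10). Its means under the other compounds spanned 1.54 under tetracycline hydrochloride to 5.25 under monuron, and the treated mean did not differ from theirs beyond its error (0.47 ± 0.30, SE, adjusted p = 0.22). The next kept probes of Gsta3 gave 2.41 and 2.47. Akr7a3, an aldo-keto reductase that reduces aflatoxin dialdehyde in rats, had 2.78, 2.18, 1.88 and 2.03. Its mean of 2.22 ± 0.39 (SD) likewise did not pass against the other 5 (0.33 ± 0.16, SE, adjusted p = 0.086).

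Gpx2, a glutathione peroxidase known from the gut lining, did pass against the other 5 compounds. It had 3.12, 2.63, 2.49 and 2.87 in treated rats, with a mean of 2.78 ± 0.28 (SD, n = 4), against means between 0.33 and 2.52 under the other compounds. The difference from their mean was 1.04 ± 0.14 (SE, adjusted p = 3.5e-06). A second kept probe of Gpx2 gave 0.41, so the size of this increase depends on the probe. Aldh1a1, an aldehyde dehydrogenase, had a mean of 2.46 ± 0.24 (SD), and its relative Aldh1a4 2.35 ± 0.16. Under the other compounds their means spanned 0.94 to 2.60 and 0.53 to 2.36, both highest under monuron. The conjugate exporter Abcc3 had a mean of 1.35 ± 0.21, with a second probe at 3.06, and the epoxide hydrolase Ephx1 1.15 ± 0.31. With median centring, Abcc3 had 0.84 and was no longer called, and Ephx1 had -0.17 (adjusted p = 0.19). Members that did not move past 2-fold included the heme oxygenase Hmox1 at -0.10 ± 0.09, the glutathione synthesis subunits Gclc at 0.05 ± 0.39 and Gclm at 0.52 ± 0.40, and the thioredoxin reductase Txnrd1 at 0.16 ± 0.16. The placental-type transferase Gstp1 had 0.35 ± 0.13 against vehicle and -1.02 ± 0.16 (SE, adjusted p = 2.1e-05) against the other 5 compounds. The list median was 0.45, and -0.39 with median centring, while its median difference from the other 5 compounds was 0.06.

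**Figure D2:**
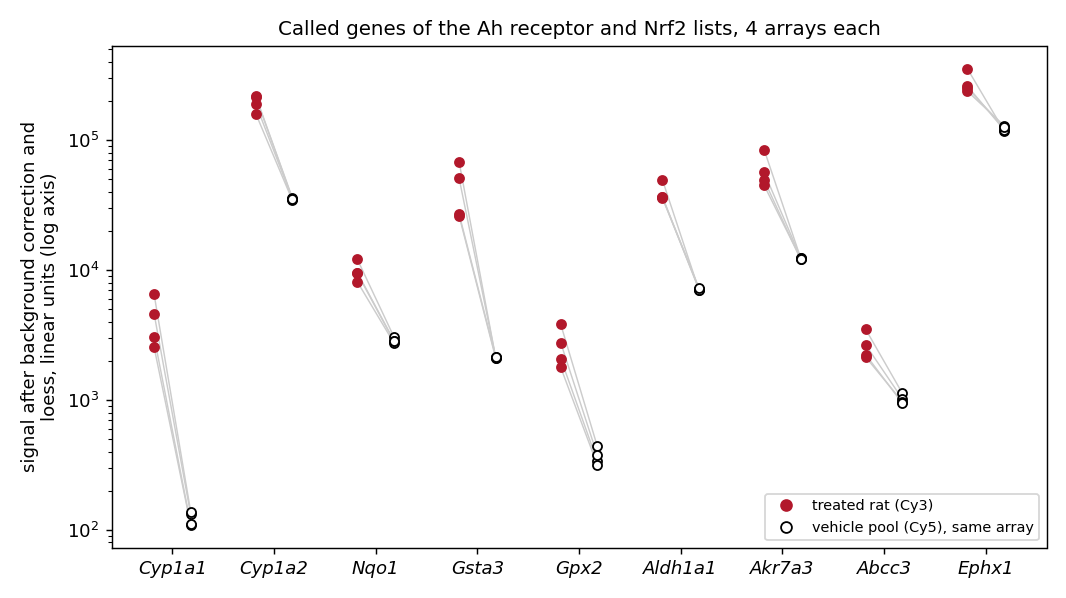
Signal after background correction and loess (y axis, log scale, linear units) for the 9 called genes of the AhR and Nrf2 lists. Filled dots are the 4 treated rats, open dots the vehicle pool on the same array, and lines join the channels of an array. Every filled dot lies above its open dot. Cyp1a1 signals were 2548 to 6506 in treated rats and 109 to 138 for the pool.

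Markers of bile duct and progenitor epithelium formed the list with the highest median. The lists were written with earlier results of these data known, so this rank and the counts below are a description. Of 18 list genes, 13 were measured, and 12 of these were above background in both channels on all 4 arrays. Of the 13, 8 rose and 1 fell, where 1.21% and 0.833% of all genes did. The median was 1.21, and 0.91 to 1.46 in single rats, beside medians from 0.03 to 0.18 under the other 5 compounds. With median centring it was 0.90, and 6 members rose and 2 fell. Without rat 3, 9 rose, and 8 rose without rat 1, rat 2 or rat 4. Against the other 5 compounds 6 members were called higher and 0 lower, where 0.883% and 0.358% of all genes were.

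Cldn7, a claudin of epithelial tight junctions, had log2 ratios of 3.94, 3.72, 2.27 and 3.62, with a mean of 3.39 ± 0.76 (SD, n = 4), 10.5-fold (limma adjusted p = 3.2e-11). Rat 3 was the lowest, yet more than 4-fold above the pool. The means under the other compounds lay between -0.20 and 1.05, and the treated mean exceeded theirs by 3.04 ± 0.22 (SE, adjusted p = 1.5e-09). Epcam, an adhesion molecule of ducts and progenitors, had 2.07, 2.21, 1.77 and 2.40, with a mean of 2.11 ± 0.27 (SD) against 0.39 to 0.93 under the other compounds. Krt19, a duct keratin, had 1.46, 1.68, 0.99 and 1.76, with a mean of 1.47 ± 0.35 (SD) against -0.25 to 0.13.

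The secreted phosphoprotein Spp1 (osteopontin) had 1.75, 1.49, 1.97 and 1.68, with a mean of 1.72 ± 0.20 (SD), against -0.57 to 0.11 under the other compounds. The mucin Muc1 averaged 1.47 ± 0.39, the annexin Anxa2 1.37 ± 0.33, the keratin Krt8 1.21 ± 0.43 and the membrane transpeptidase Ggt1 1.16 ± 0.16 (SD, n = 4 each). Anxa2 and Krt8 were not called with median centring (0.90 and 0.44). Krt8 was bright in the vehicle pool too, at signals of 7326 to 7846. Its means under the other compounds were 0.15 to 1.00, highest under hexachloroethane. Krt18, the partner of Krt8, averaged 0.84 and Prom1, a progenitor surface protein, 0.82, both under 2-fold. Krt7 had -0.03 ± 0.23 and the fetal protein Afp -0.22 ± 0.11. Onecut1, a transcription factor of hepatocytes and ducts, was the member that fell, with -3.26 and -2.96 in rats 2 and 4 but -0.33 and -0.14 in rats 1 and 3. Its call ended without rat 2 (-1.14, adjusted p = 0.15) or rat 4 (-1.24, adjusted p = 0.13). In whole liver RNA, more cells of a type and more RNA per cell cannot be told apart. Prss8 (prostasin), a membrane serine protease of epithelia outside the list, had 2.63, 2.93, 2.24 and 2.99, with a mean of 2.70 ± 0.34 (SD), and exceeded the other compounds by 2.05 ± 0.31 (SE, adjusted p = 1.8e-05). Its other kept probe gave 0.83.

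**Figure D3:**
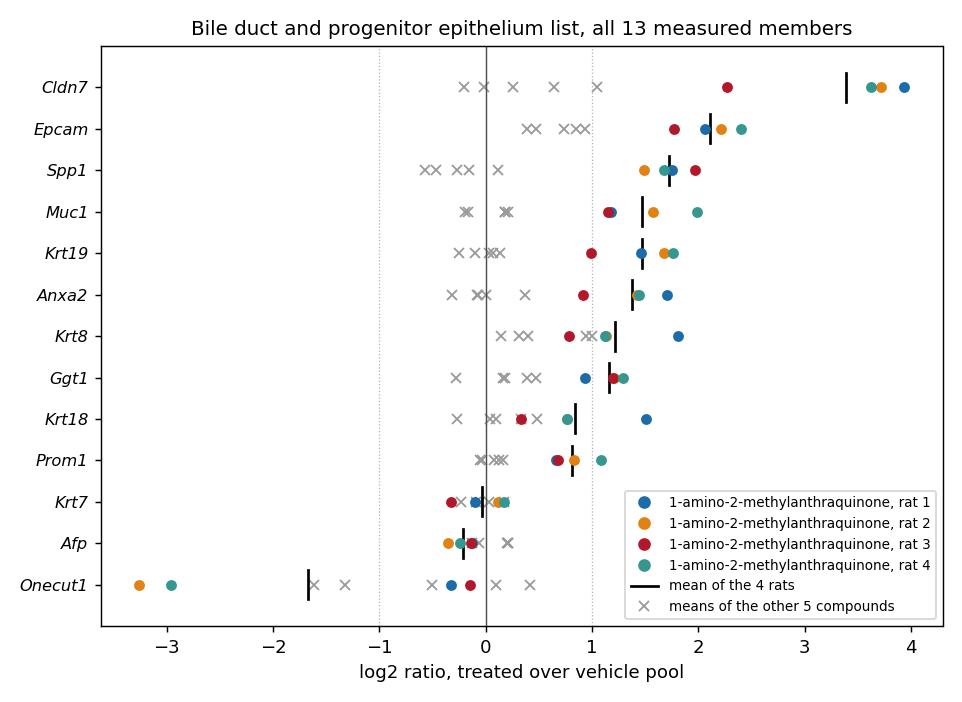
Log2 ratio of treated over vehicle (x axis) for all 13 measured markers of bile duct and progenitor epithelium. Dots are the 4 treated rats, black bars their mean, grey crosses the means of the other 5 compounds, and dotted lines mark 2-fold. The first 8 genes were called higher, and Onecut1 splits into rats 2 and 4 near -3 and rats 1 and 3 near 0.

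The other cell type lists had smaller medians. None of the 11 measured markers of Kupffer cells and macrophages was called (median 0.04), nor any of 5 of liver endothelium (0.02), 10 of T, B and NK cells (0.09), 14 of stellate cells and fibroblasts (0.20) or 6 of red blood cell precursors (0.11). Over all genes 1.21% were called higher and 0.833% lower, so 0 calls in lists this short lie near that share. On adjusted p alone the Kupffer list had 0 higher and 1 lower, endothelium 0 and 1, and T, B and NK cells 2 and 3. Stellate cells had 7 and 2 and red blood cell precursors 3 and 0, where 27% and 30.6% of all genes were higher and lower. With median centring these medians lay between -0.72 and -0.14. Neutrophils had 1 of 10 markers measured, S100a8 at 0.56, pancreatic acinar cells 1 of 12, platelets 0 of 6, and mast cells 4 of 7, with 0 called. Of 3 measured adipocyte markers Fabp4, a fatty acid binding protein, rose at 1.33 ± 0.38 (SD), and had 1.00, under the 2-fold limit, as a mean over its probes. Against the other 5 compounds the stellate list had 2 members called higher, where 0.883% of all genes were. They were the matrix proteoglycan Dcn (1.02 ± 0.12, SE) and the filament protein Vim (1.01 ± 0.12). Col1a1, a collagen chain, lay at 0.89 ± 0.12 in that comparison. The bile duct list's summed signal was 152025 to 306385 in treated rats and 117990 to 126946 for the pool. The hepatocyte list's was 1702310 to 1820170 in treated rats and 2087300 to 2324080 for the pool. Their part in the results was not tested.

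The 12 hepatocyte markers had medians below 0 under all 6 compounds. Their median was -0.49, and between -0.63 and -0.44 under the other 5 compounds, with a median difference of 0.06. With median centring all 12 fell, the median was -1.64 and the median difference from the other 5 compounds was -0.28. Apoc3, an apolipoprotein, was the 1 called, at -1.13 ± 0.15 (SD), while its other kept probes gave 0.11 and the mean over its probes was -0.30, with no call. It had -0.08 ± 0.09 (SE, adjusted p = 0.48) against the other compounds. Of 40 measured genes for secreted hepatocyte proteins 6 fell and 1 rose, where 0.833% and 1.21% of all genes did, and 4 fell without rat 1. On adjusted p alone 32 were lower and 3 higher, where 30.6% and 27% of all genes were. With median centring 34 fell and 1 rose (median -1.73). Their median of -0.54 in the loess-scaled data lay within the range of -0.60 to -0.31 under the other 5.

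Genes for 2 apolipoproteins fell beyond the other compounds. Apoa4, made on lipid loading, had -4.13, -3.09, -2.11 and -3.65 in treated rats, with a mean of -3.24 ± 0.87 (SD, n = 4), 9.47-fold lower (limma adjusted p = 7.9e-10). Under the other compounds it lay between -1.60 and -0.31, and the difference from their mean was -2.13 ± 0.27 (SE, adjusted p = 1.7e-06). Apoa2, a constituent of high density lipoprotein, had -2.02, -1.79, -1.26 and -2.35, with a mean of -1.85 ± 0.45 (SD). The plasma protease inhibitor Fetub averaged -1.40 ± 0.27, and -0.87 as a mean over its kept probes, which is no longer 2-fold. Serpina7, the thyroxine-binding globulin, was the secreted protein that rose, with 2.87, 1.72, 0.57 and 2.51. Its mean of 1.92 ± 1.02 (SD) exceeded the other compounds by 2.13 ± 0.39 (SE, adjusted p = 0.00015), and rat 3 alone lay under 2-fold.

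Among genes with a symbol, the deepest decrease was that of Cyp3a9, a steroid and drug oxidising P450 that is higher in female than male rat liver. Its signal was 376, 288, 602 and 295 in treated rats, against 5522, 5719, 5573 and 5652 for the pool. Log2 ratios were -3.88, -4.31, -3.21 and -4.26, with a mean of -3.91 ± 0.51 (SD, n = 4), 15.1-fold lower (limma adjusted p = 3.9e-11). The other compounds had means between -3.26 and -0.19, lowest under 1,2-dichlorobenzene, and the treated mean lay below theirs by -2.31 ± 0.26 (SE, adjusted p = 4.9e-07). Cyp2c11, the main male-specific P450 of rat liver, had -2.38, -1.47, -1.21 and -2.10, with a mean of -1.79 ± 0.54 (SD). Car3, a carbonic anhydrase of male-biased expression, had -3.69, -2.54, -1.75 and -1.96, with a mean of -2.49. Its means under the other compounds were -2.92 to -0.47, lowest under hexachloroethane.

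Of 18 measured male-biased genes, 3 rose and 3 fell, where 1.21% and 0.833% of all genes did. With median centring 1 rose and 12 fell (median -1.39 in place of -0.29). Those that rose were Serpina7, the carbonic anhydrase Car2 (1.02 ± 0.12, SD) and the prostatic protein Pbsn (1.01 ± 0.88). The calls of Car2 and Pbsn ended without rat 1 (1.00 and 0.90), without rat 4 (0.98 and 0.79) and with median centring (0.60 and 0.43), and that of Pbsn also without rat 2 (0.90). Besides Cyp2c11 and Car3, the member that fell was the reductase Dhrs7 (-2.55 ± 0.56, SD), whose other kept probe gave 0.13. Of 9 measured female-biased genes 2 rose and 2 fell (Cyp3a9 and Sult2a1), 1 rose without rat 3, and 0 rose and 4 fell with median centring. The sulfotransferase Sult2a6 rose at 1.63 ± 0.15 (SD), but was not called with median centring (0.81). Its relative Sult2a1 fell at -1.53 ± 0.97, with 2 of its 4 other kept probes of the opposite sign and no call as a mean over its probes (-0.65). The prolactin receptor Prlr rose at 1.11 ± 0.44, and its call ended without rat 3 (0.92) and with median centring (0.63). Probes for such gene families can bind relatives, so values of single members are uncertain.

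Targets of CAR and PXR, nuclear receptors that induce drug metabolism, had 4 of 26 measured members higher and 3 lower, where 1.21% and 0.833% of all genes were. With median centring 1 rose and 12 fell (median -0.88). The carboxylesterase Ces2c had 1.66, 1.52, 1.13 and 1.53, with a mean of 1.46 ± 0.23 (SD), and 0.78 with median centring, where it was not called. The list's median was -0.10, and -0.31 for the difference from the other 5 compounds, which had medians of -0.01 to 0.65. Of 19 glucuronosyltransferases and sulfotransferases 1 rose and 1 fell, of 18 drug transporters 1 rose, and of 17 glutathione transferases 2 rose. With median centring 0 rose and 6 fell in the first of these lists, 0 and 8 in the second, and 1 and 3 in the third. The glutathione transferase Gstt3, called besides Gsta3, averaged 1.94 ± 0.23 and did not pass against the other 5 compounds (0.29 ± 0.13, SE, adjusted p = 0.080). With median centring Gstt3 had 0.85 and was not called.

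**Figure D4:**
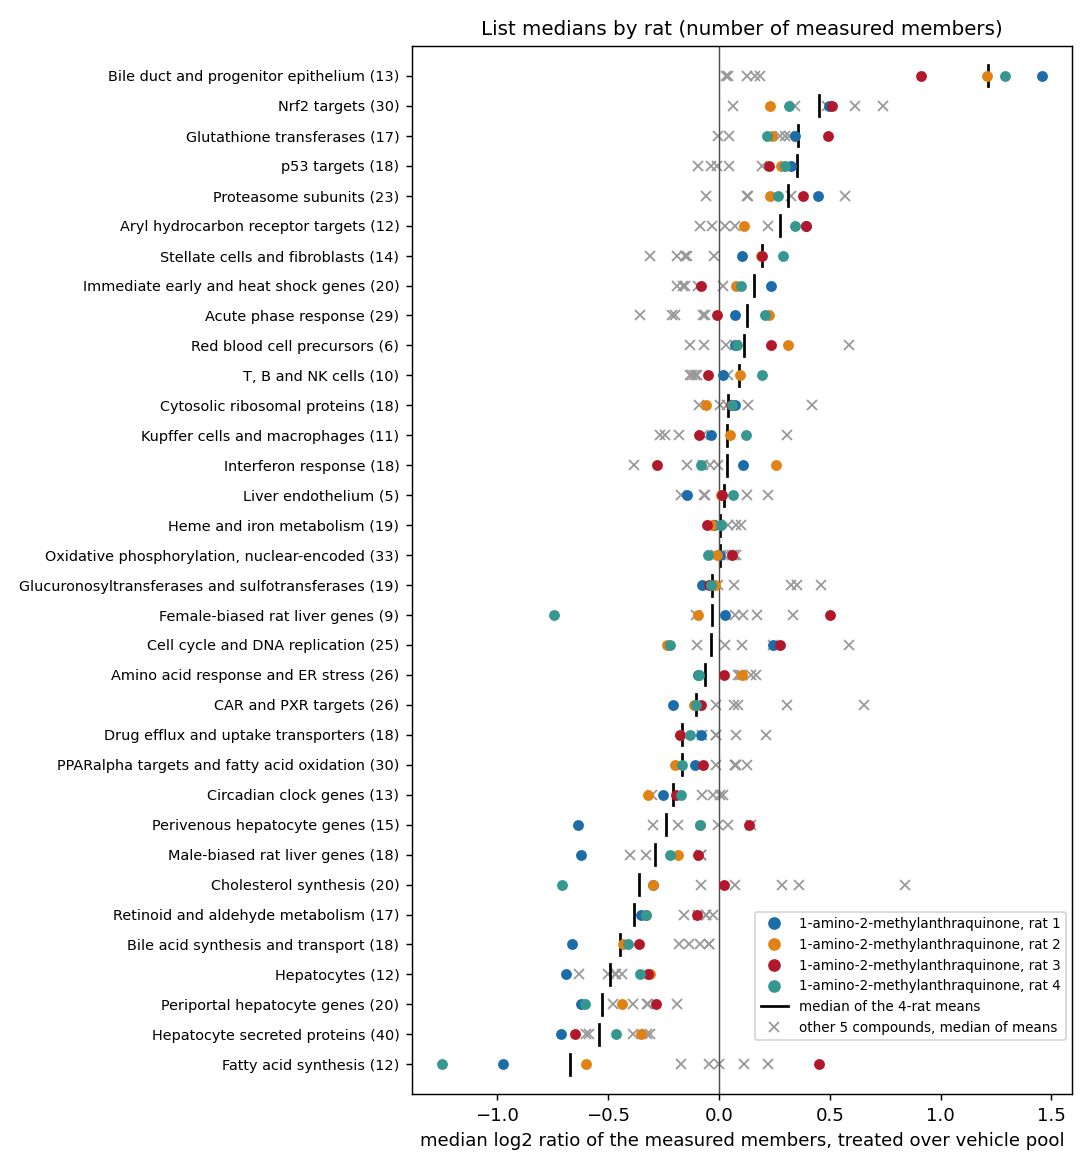
Median log2 ratio of treated over vehicle (x axis) for the 34 gene lists with at least 5 measured members, whose number stands in brackets. Dots are the 4 treated rats, black bars the median of the 4-rat means, and grey crosses the other 5 compounds. The bile duct list lay at 0.91 to 1.46 in treated rats and at 0.03 to 0.18 under the other compounds. Median centring moved these medians to 0.90 for bile duct markers, -0.16 for AhR targets, -0.39 for Nrf2 targets, -0.13 for p53 targets and -0.57 for proteasome subunits.

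Targets of p53, the transcription factor of the DNA damage response, had 0 of 18 measured members called. Over all genes 1.21% were called higher and 0.833% lower, so 0 of 18 lies near that share. On adjusted p alone 10 were higher and 3 lower, where 27% and 30.6% of all genes were. The cyclin Ccng1 had 0.83, 0.73, 0.75 and 0.64, with a mean of 0.74 ± 0.08 (SD, n = 4), and lay above the other compounds by 0.51 ± 0.05 (SE, adjusted p = 1.2e-07). The cell cycle inhibitor Cdkn1a had 0.50, 0.62, 0.19 and 0.27, with a mean of 0.40 ± 0.20 (SD), and 0.80 ± 0.17 (SE, adjusted p = 0.00063) against the other compounds. The repair enzyme Mgmt averaged 0.62 ± 0.25, the secreted factor Gdf15 0.70 ± 0.39 and Mdm2, which degrades p53, 0.31 ± 0.04. Bax, a promoter of cell death, had 0.09 ± 0.14. The list median of 0.35 became -0.13 with median centring, and the median difference from the other 5 compounds was 0.29, or 0.20 with median centring. Of 25 genes of the cell cycle and DNA replication 0 were called, also near the share of all genes, with 1 higher and 3 lower on adjusted p alone. Their median was -0.03, but 0.24 and 0.28 in rats 1 and 3 against -0.23 and -0.22 in rats 2 and 4, so it averages rats on both sides of 0. With median centring 0 rose and 2 fell.

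Of 29 measured acute phase genes, whose proteins the liver secretes in inflammation, 3 rose and 0 fell, where 1.21% and 0.833% of all genes did. With median centring 2 rose and 13 fell (median -0.76 in place of 0.13). Lbp, the lipopolysaccharide binding protein, had 2.90, 2.55, 0.43 and 2.14, with a mean of 2.00 ± 1.09 (SD, n = 4). The means under the other compounds were 0.25 to 0.55, so that rat 3 lay among them and the other 3 rats far above. A second kept probe of Lbp gave 1.11, so the size of this increase depends on the probe. Spp1, described above, was the second and the chemokine Cxcl1 the third, at 1.22, 0.24, 0.54 and 2.14. Cxcl1 was no longer called without rat 1 (0.97), without rat 4 (0.66), with median centring (0.70) or as a mean over its probes (0.90). Without rat 3, 4 rose. Against the other 5 compounds 6 were called higher and 0 lower, where 0.883% and 0.358% of all genes were. Besides Lbp and Spp1 these were the interleukin receptor antagonist Il1rn (1.30 ± 0.18, SE), the plasma proteins Orm1 (1.10 ± 0.11) and Hp (1.10 ± 0.11), and the heme carrier Hpx (1.03 ± 0.13), named after their values were seen. Il1rn, Orm1, Hp and Hpx were not called against vehicle. The list median lay below 0 under each of the other compounds, at -0.36 to -0.06, which adds to these differences. A second kept probe of Il1rn had the opposite sign (-0.21). The peptide transporter Tap2 was the 1 of 18 interferon response genes that rose, at 1.08 ± 0.43 (SD). Its call ended without rat 1 (0.87) and with median centring (0.50), where 0 of the 18 rose and 4 fell.

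Of 18 measured bile acid genes 3 fell and 0 rose, where 0.833% and 1.21% of all genes did. With median centring 14 fell (median -1.39). Amacr, the racemase of bile acid side chains, had -1.52, -1.87, -1.55 and -1.62, with a mean of -1.64 ± 0.16 (SD, n = 4), and -1.20 ± 0.11 (SE, adjusted p = 2.5e-08) against the other compounds. All 4 rats lay close together. Slc27a5, the bile acid CoA ligase, had -1.26, -1.42, -1.37 and -1.20, with a mean of -1.31 ± 0.10 (SD). Its means under the other compounds spanned -1.65 under 1,2-dichlorobenzene to 0.08 under tetracycline hydrochloride, with -1.22 under 1,2,3-trichloropropane. Cyp7a1, the rate-limiting enzyme of bile acid synthesis, had -0.76, -0.77, -0.33 and -2.26, and its call ended without rat 4 (-0.62, adjusted p = 0.21). The list median was -0.45, beside -0.18 to -0.05 under the other compounds.

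A pair of peroxisomal enzymes were among the largest decreases. Hacl1, a lyase of fatty acid alpha-oxidation, had -0.72, -2.22, -1.89 and -2.56, with a mean of -1.85 ± 0.80 (SD, n = 4). Hao2, a hydroxyacid oxidase, had -2.53, -1.65, -1.56 and -1.66, with a mean of -1.85 ± 0.46. Both passed against the other compounds, Hacl1 by -1.59 ± 0.25 (SE, adjusted p = 2.7e-05) and Hao2 by -1.17 ± 0.13 (SE, adjusted p = 5.0e-07). Of 30 measured targets of PPARalpha, the lipid-sensing receptor that induces fatty acid oxidation, 1 rose and 2 fell, where 1.21% and 0.833% of all genes did. With median centring 1 rose and 13 fell (median -0.93 in place of -0.17). The fatty acid transporter Cd36 had 2.52, 1.37, 2.04 and 1.60, with means of -0.29 to 2.52 under the other compounds, highest under monuron. The fatty acid binding protein Fabp1 had -1.25, -1.58, -0.56 and -1.95, and the lipase inhibitor Angptl4 averaged -1.08 ± 0.03 (SD).

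Genes of fatty acid synthesis divided the rats. Of 12 measured members 1 fell, where 0.833% of all genes did. This was Fasn, the fatty acid synthase, with -1.46, -1.33, 0.34 and -1.82 and a mean of -1.07 ± 0.96 (SD, n = 4, limma adjusted p = 0.0075). Rat 3 alone lay above 0. Acly, which makes cytosolic acetyl-CoA, had -1.45, -0.99, 0.56 and -1.53, and the elongase Elovl6 -0.31, -0.61, 1.60 and -1.25. The list median was -0.97, -0.60, 0.45 and -1.25 in rats 1 to 4. Rat 3 was the highest of the 4 rats for 10 of 12 members, and alone above 0 for 8. Without rat 3, 6 members fell, where 126 of 12000 genes did. Without rat 1, rat 2 or rat 4, 0 of the 12 were called, where 90 to 108 of all genes fell. With median centring 8 fell (median -1.60), where 970 of 12000 genes did. Acly, Elovl6 and the values by rat were singled out after they were seen.

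Of 20 measured genes of cholesterol synthesis 1 fell against vehicle, where 0.833% of all genes did, and 2 without rat 3. With median centring 13 fell (median -1.23). The 1 that fell was Insig1, a sterol sensor, at -0.32, -0.79, -0.67 and -2.58, whose call ended without rat 4 (-0.59, adjusted p = 0.21). Against the other 5 compounds 4 were called lower and 0 higher, where 0.358% and 0.883% of all genes were, with a median difference of -0.62. Among these, chosen after their values were seen, were the cyclase Lss (-1.13 ± 0.12, SE, adjusted p = 1.4e-07), the synthase Hmgcs1 (-1.09 ± 0.18) and the demethylase Cyp51 (-1.01 ± 0.16). The list median against vehicle was -0.36, and the other compounds lay between -0.08 and 0.84, with monuron highest. Rat 4 was the lowest of the 4 rats for 18 of 20 members and rat 3 the highest for 14.

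**Figure D5:**
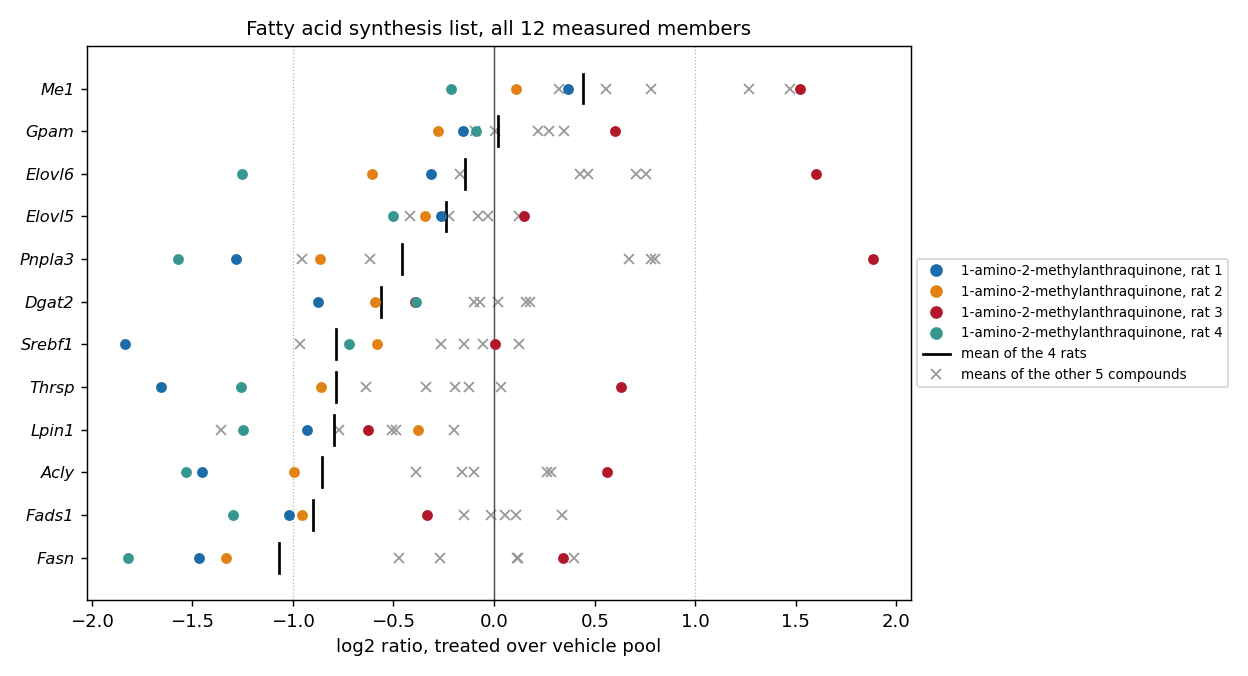
Log2 ratio of treated over vehicle (x axis) for all 12 measured genes of fatty acid synthesis. Dots are the 4 treated rats, black bars their mean, grey crosses the means of the other 5 compounds, and dotted lines mark 2-fold. Rat 3 lay highest for 10 of the 12 genes, while Fasn was at -1.46, -1.33 and -1.82 in rats 1, 2 and 4.

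Periportal genes, expressed where blood enters the liver lobule, had 0 of 20 measured members higher and 3 lower, where 1.21% and 0.833% of all genes were. With median centring 18 fell, with a median of -1.48, and the median difference from the other 5 compounds was -0.50 in place of -0.23. The serine dehydratase Sds had -2.01, -2.23, -1.67 and -3.11, with a mean of -2.25 ± 0.62 (SD, n = 4), and the histidine lyase Hal averaged -1.52 ± 0.52. Other kept probes of Hal spanned -1.28 to -0.21. The glucose-releasing phosphatase G6pc1 averaged -1.55 ± 0.89, lowest in rat 3 at -2.78. Of these, Hal passed against the other compounds (-1.10 ± 0.14, SE, adjusted p = 2.6e-06), while Sds (-0.71 ± 0.34, SE, adjusted p = 0.089) and G6pc1 (-0.78 ± 0.36, SE, adjusted p = 0.079) did not. The list median of -0.53 in the loess-scaled data lay near the -0.48 to -0.19 under the other compounds. Of 15 perivenous genes 2 rose, Cyp1a2 and Aldh1a1, and 2 fell, Oat and Cyp7a1. The call of Oat ended without rat 1 (-0.84) and that of Cyp7a1 without rat 4. With median centring 2 rose and 7 fell.

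Among further genes of the named increases, Aph1a, a subunit of gamma-secretase, was the most even. It had 2.14, 2.02, 1.92 and 1.99, with a mean of 2.02 ± 0.09 (SD, n = 4), against -0.18 to 0.16 under the other compounds (difference 2.03 ± 0.08, SE, adjusted p = 6.7e-14). Grin2c, a subunit of the NMDA glutamate receptor, averaged 3.34 ± 0.23 and Samd7, known from photoreceptors, 2.84 ± 0.45. Both had means over 2 under hexachloroethane, monuron and 1,2-dichlorobenzene as well. Acsm5, a medium-chain acyl-CoA synthetase, averaged 2.36 ± 0.40, below its mean of 3.46 under monuron. Among decreases, the serine protease Prss32 had -2.57, -2.69, -2.01 and -2.74 and Tsnaxip1 -2.21, -2.22, -1.38 and -3.42, both near 0 under the other compounds (-0.59 to 0.49 and 0.14 to 0.43). Prss32 was well above background on 2 of the 4 arrays in the treated channel. The chromatin protein Hmga1 averaged -1.88 ± 0.92, with other kept probes at -1.88 and 0.16. Inhba, an activin subunit, averaged -1.60 ± 0.33, Spdye4c -1.67 ± 0.23 and Elapor1 -1.56 ± 0.55.

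The 4 treated rats agreed best in pairs that left out rat 3. The correlation of log2 ratios across all 12000 genes was 0.790 to 0.896 among rats 1, 2 and 4 and 0.695 to 0.723 between rat 3 and each of them. These are correlations across genes, which are not independent replicates. Without rat 3, 299 genes were called, 229 of them shared with the 245. The median SD over the rats was 0.35 for called genes and 0.10 for all genes. Among called genes with a symbol, those with the largest SD were Onecut1 (1.66), Inmt (1.47), Noct (1.23), Oat (1.13) and Lbp (1.09). Inmt, an amine methyltransferase, had -2.78, -2.88, 0.05 and -2.97, and Oat, an ornithine aminotransferase, -2.52, -1.52, 0.22 and -1.23. Under the other compounds the means of Inmt spanned -4.69 to -0.05 and those of Oat -3.72 to -0.19, both lowest under 1,2-dichlorobenzene. Neither gene passed against the other compounds. The clock-linked deadenylase Noct had -0.39, -1.27, -2.10 and -3.28, and its call ended without rat 4 (-1.25, adjusted p = 0.070). Rat 3 was thus near the pool for Inmt and Oat, but not for Noct.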

How the data were processed

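Rat liver RNA was measured on 2-colour Agilent arrays, 1 per treated rat. Scanner files hold spot intensity, made with Agilent Feature Extraction 9.1.3.1 per the submitters' processing notes, and a log10 ratio of red over green per the file headers. The authors also deposited a table of log2 ratios, with centring unstated. Per the labels, Cy5 held the vehicle pool and Cy3 the treated rat, and every ratio was turned to treated over vehicle. In R 4.3.3 with limma 3.58.1, intensities were corrected by normexp (offset 50) and scaled by loess within arrays. Controls and outlier spots were left out and the 2 copies of a probe averaged. Probes stayed in (16784 of 21900) where 1 channel lay well above background throughout the 4 arrays of any compound, and the brightest kept probe stood for its gene. One fit over 24 arrays gave each compound a mean (18 residual df). RefSeq tables named 4827 of 12000 genes with a symbol, and others keep the array's name. Nothing states that rats were independent beyond their labels.

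Named genes were the 15 largest called changes in each direction that also passed against the other compounds, the 8 largest that did not, up to 8 called members of each list, the 5 called genes of largest SD, and members of the AhR, Nrf2, p53 and cell type lists. Members and lists were chosen with earlier results of these data known. Same-numbered rats of different compounds deviated with correlations of -0.156 to 0.390. Such values cannot decide whether the numbers pair samples, and the main fit left the numbers out. The number of arrays limits the precision.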

Additional observations from a re-analysis of the deposited data

Results flagged for a closer look

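Of 75 named genes, 4 had 1 rat set far apart from the other 3 by Dixon's test, a rate near the 1 in 20 that chance gives. Aldh1a1 was highest in rat 1, at 2.82 against 2.31 to 2.36 in the other 3 rats. Hao2 was lowest in rat 1, at -2.53 against -1.66 to -1.56. Angptl4 was lowest in rat 4, at -1.12 against -1.06 in each of the other 3, a gap of little size. Inmt was highest in rat 3, at 0.052 against -2.97 to -2.78 in the other 3 rats.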

How the results depend on the processing

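Against vehicle, the 245 calls became 609 (347 higher, 262 lower) with the scanner's log ratio, 617 (351 and 266) with the authors' table, 375 (234 higher) with a normexp offset of 0, and 1090 (970 lower) with median centring. Of the 245, 236, 236, 244 and 178 remained called in these settings. A 1.5-fold limit gave 854 (440 and 414), and the adjusted p alone 6914 (3239 and 3675). Against the other 5 compounds, the 149 calls became 400 (296 and 104), 393 (294 and 99) and 254 (192 higher) in the first 3 settings, 590 (373 and 217) at 1.5-fold and 5638 (2867 and 2771) on adjusted p alone. Leaving out 1 rat gave 228 to 299 calls against vehicle (138 to 173 higher, 90 to 126 lower) and 118 to 202 against the other compounds (89 to 133 higher, 29 to 69 lower). With the replicate number as a block, 245 and 148 genes were called. Of 75 named genes, median centring ended the call of 13 and turned Ephx1 to -0.17, and averaging probes ended 13. The causes were not tested. Control rats' spread, dye effects against vehicle, and slide or scan day cannot be separated from the compound here, and dim probes limit small changes.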

Other observations

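For the counts of calls in this paragraph, 1.21% of all genes were called higher and 0.833% lower. With median centring 120 of 12000 genes were higher and 970 lower. Proteasome subunits lay slightly high, with 0 of 23 measured members called. On adjusted p alone 21 were higher and 2 lower, where 27% and 30.6% of all genes were. Their median was 0.31 against vehicle, 0.10 against the other 5 compounds, and -0.57 with median centring, so its sign depends on the scaling. Nuclear-encoded genes of oxidative phosphorylation (33 measured, median 0.00) and cytosolic ribosomal proteins (18 measured, median 0.04) had 0 called. With median centring 11 of the first (median -0.93) and 5 of the second (median -0.88) fell. Of 26 genes of the amino acid response and ER stress 1 rose and 1 fell, and 1 and 10 with median centring. Slc7a5, an amino acid transporter, rose at 1.09 ± 0.16 (SD, n = 4), with 0.59 as a mean over its probes, which is no longer 2-fold. Xbp1, a transcription factor of the unfolded protein response, fell at -1.10 ± 0.56, and its call ended without rat 2 (-0.94). Of 20 immediate early and heat shock genes Dusp1, a phosphatase of MAP kinases, was the 1 called, at -1.48, -0.88, -2.23 and -2.17 in rats 1 to 4, and 3 fell with median centring. Among retinoid and aldehyde genes Rdh7, a retinol dehydrogenase, fell at -1.16 ± 0.15 (SD), and at -0.97 with the scanner's log ratio it was not called.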
